A study of Mus musculus with 12 samples.

Results

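The liver makes bile acids from cholesterol, and 10 enzymes of that pathway are described here in livers that received Rspo2, the gene of the secreted Wnt amplifier R-spondin 2. The 10 genes were taken by symbol from a deposited table of 54532 genes: Cyp7a1, Cyp8b1, Cyp27a1, Cyp7b1, Akr1d1, Baat, Slc27a5, Cyp2c70, Acox2 and Hsd3b7. Each symbol matched 1 gene, and all 10 passed the filter on low values (a mean of at least 0.5 FPKM over the 12 libraries). FPKM relate a gene's reads to its length and to a size for its library, which here followed the median-of-ratios scaling factor of the library and not its own total of reads. Livers of Apoe knockout mice injected with Rspo2-AAV gave 6 libraries (numbers 1, 2, 4, 5, 6 and 7). They were set against 6 liver libraries of Apoe knockout mice injected with a Gfp-AAV control (numbers 1 to 6), so the Apoe deletion and an adeno-associated virus are shared by every animal. Age, sex, diet, vector dose, the promoter in the vector and the time after injection are not given in the sources used here. Whether every library came from its own mouse is not stated in the labels, and p-values therefore rest on the spread from library to library, which may be technical.

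Bile acid synthesis starts by 2 routes. In the classical route Cyp7a1, the rate-limiting enzyme, hydroxylates the cholesterol ring in the endoplasmic reticulum, and Hsd3b7, Cyp8b1 and Akr1d1 remodel the ring further. In the alternative route Cyp27a1, a mitochondrial enzyme, first oxidises the side chain, and Cyp7b1 then hydroxylates the ring. Peroxisomal enzymes such as Acox2 shorten the side chain, Slc27a5 activates the acid with coenzyme A, and Baat joins it to taurine or glycine. Cyp2c70 makes the muricholic acids typical of mice. Bile acids repress their own synthesis through the nuclear receptor FXR, and Cyp7a1 transcript is densest around the central vein, where Wnt signalling in the liver is strongest.

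Several libraries stood apart before any enzyme was considered. Recovered reads ran from 14295644 to 22195576 per library. Rspo2 was at 49.9 to 573 FPKM in the Rspo2-AAV libraries, lowest in number 2, and had 0 reads in the 6 control libraries. Apoe reads (43.1 to 101 FPKM in Rspo2-AAV and 38.8 to 149 FPKM in control libraries) do not check the knockout, because the deleted part is not given. Xist, an RNA made from the silenced X of females, reached 28.0 FPKM in Rspo2-AAV 1, 5.57 in Rspo2-AAV 2 and 42.0 in control 3, and under 1 FPKM in the other 9 libraries. Rspo2-AAV 2 also held Y-linked transcripts, with a sum over 4 genes of 17.8 FPKM. That sum was 0.0764 in Rspo2-AAV 1 and 27.9 to 29.5 in Rspo2-AAV 4 to 7, so Rspo2-AAV 2 carries marks of both sexes. In control 3 the sum was 1.28 FPKM, low but above that of Rspo2-AAV 1, against 21.4 to 30.4 FPKM in the other controls. Pancreatic acinar genes took 4.45% of the reads of Rspo2-AAV 4 and 0.396% of those of Rspo2-AAV 5. Rspo2-AAV 6 and 7 also held them, with sums of 387 and 33.6 FPKM, against under 1 FPKM in every control. Every Rspo2-AAV library among numbers 4 to 7 thus held these transcripts, and their part in the enzyme values was not tested. Among the 9 libraries with little Xist the Rspo2-AAV ones are numbers 4 to 7, while the controls also include numbers 1 and 2, so only numbers 4 to 7 compare the vectors within 1 set of numbers there. Hepatocyte markers were abundant throughout: the summed level of 6 (Alb, Ttr, Apoa1, Serpina1c, Tat and Hnf4a) was 18576 to 41319 FPKM in Rspo2-AAV and 22506 to 46213 FPKM in control libraries, and limma called 0 of the 6 (3 at an unadjusted p under 0.05).

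Across all 12 libraries 1 of the 10 enzymes was called higher, Cyp27a1, and 0 were called lower, while 5.2% of the 13447 tested genes were called in either direction, 2.55% higher and 2.65% lower (limma on log2(FPKM + 0.5), Benjamini-Hochberg adjusted p under 0.05). At an unadjusted p under 0.05 there were 3 higher and 2 lower, where 21.5% of all tested genes passed, and limma-voom on recovered reads also called 1 higher and 0 lower. The enzymes split evenly, with 5 positive and 5 negative log2 changes and a median of -0.08, and the median over all tested genes was 0.00252. The most negative change was that of Cyp7b1 and the most positive were those of Cyp7a1 and Akr1d1, none of which passed the test. In the 9 libraries with little Xist 3 enzymes were called higher (Cyp27a1, Akr1d1 and Hsd3b7) and 2 lower (Cyp7b1 and Cyp8b1), against 12.8% of all tested genes in either direction, 6% higher and 6.75% lower. Among the libraries numbered 4 to 7, 2 were higher (Cyp27a1 and Akr1d1) and 3 lower (Cyp7b1, Cyp8b1 and Baat), against 13.3% (6.34% higher and 6.92% lower). Without controls 1 and 2, 1 enzyme was higher and 0 were lower by limma, against 3.38% (1.58% higher and 1.79% lower). The groups did not overlap for 6 of the 10 enzymes in the 9 libraries with little Xist, against 15.2% of all tested genes. They did not overlap for 6 among numbers 4 to 7, against 28.9%, or for 2 among numbers 1 to 3, against 22.7%. Both counts of 6, and the 3 called higher where Xist was low, include Hsd3b7. That gene had only 9 to 38 reads per library, and its level is uncertain. In these bulk samples fewer cells of a type and less RNA per cell cannot be told apart.

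**Figure D1:**
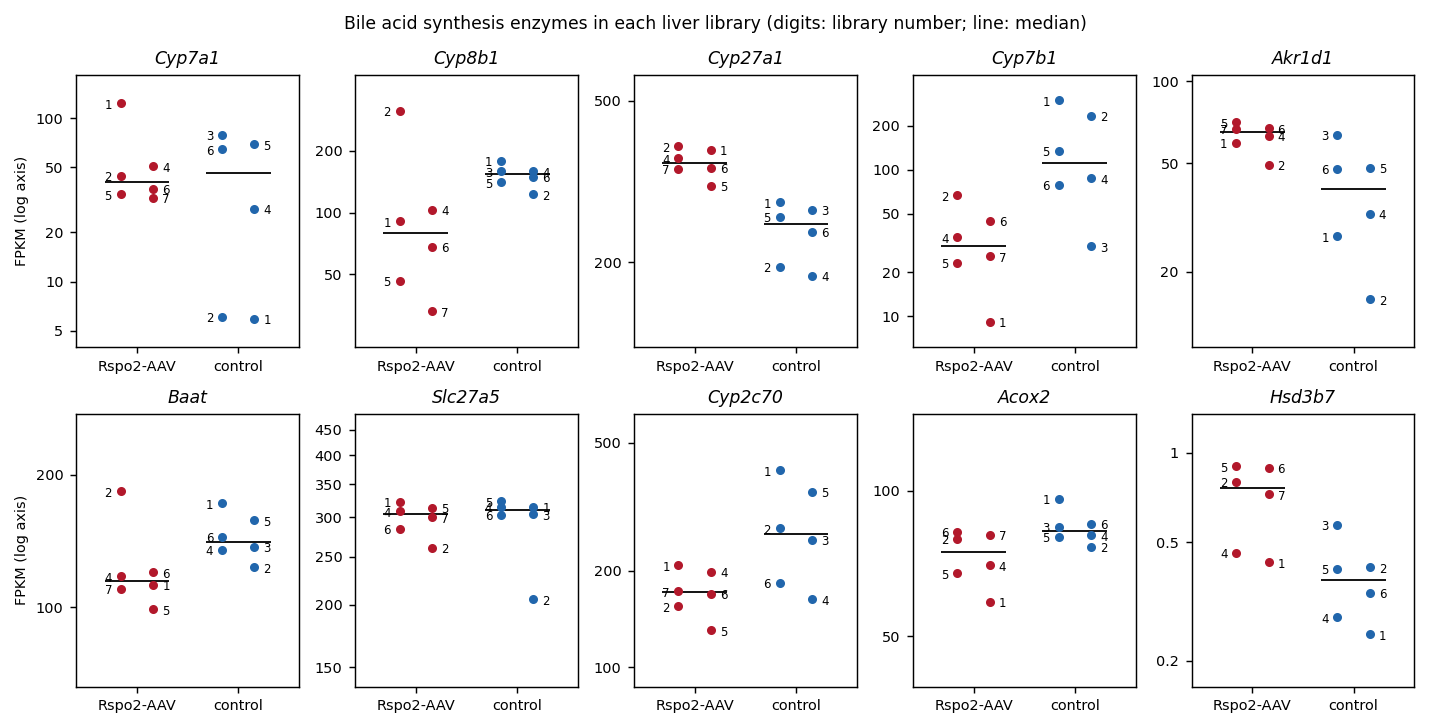
FPKM (log axis) of each enzyme in the Rspo2-AAV libraries (red, left) and the control libraries (blue, right), with the library number beside each point and the group median as a line. Cyp27a1 is the only enzyme whose 6 Rspo2-AAV values, 309 to 386 FPKM, all lie above the 6 control values, 185 to 281 FPKM.

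Cyp27a1 rose in the Rspo2-AAV livers. This enzyme opens the alternative route and also oxidises the side chain in the classical one. Cyp27a1 (ENSMUSG00000026170, GRCm38 chromosome 1, 74713574 to 74737892, plus strand) ran from 309 FPKM in Rspo2-AAV 5 through a median of 351 to 386 in Rspo2-AAV 2, against 185 in control 4, a median of 248 and 281 in control 1. The groups did not overlap, which held for 3.24% of all tested genes, 1.62% in this direction. The mean was 352.5 ± 28.3 FPKM in Rspo2-AAV and 238 ± 39.8 FPKM in control livers (SD, n = 6 each), 1.49-fold higher (log2 change 0.58 ± 0.13 SE; limma adjusted p = 0.0255). The log2 change was 0.56 in the 9 libraries with little Xist (limma adjusted p = 0.0302), 0.58 among numbers 4 to 7 (limma adjusted p = 0.0256) and 0.64 among numbers 1 to 3 (limma adjusted p = 0.733, 2 against 3 libraries). Its call was narrow. Leaving out any one of Rspo2-AAV 4, 6 or 7 or control 2, 4 or 6 raised the limma adjusted p to between 0.0512 and 0.0671, with log2 changes of 0.51 to 0.59. The call was also lost without Rspo2-AAV 4 and 5, the libraries with the most pancreatic reads (0.62, limma adjusted p = 0.0876), with TPM scaling (0.59, limma adjusted p = 0.0911) and without the filter on low values (limma adjusted p = 0.0546).

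Cyp7b1 had the largest difference of the 10 but also a wide spread. It clears the oxysterols that Cyp27a1 makes, and in mouse liver it is known as a gene with higher expression in males. Cyp7b1 (ENSMUSG00000039519, chromosome 3, 18071950 to 18243338, minus strand) was at 9.20 FPKM in Rspo2-AAV 1, a median of 30.2 and 66.9 in Rspo2-AAV 2, against 30.1 in control 3, a median of 111 and 299 in control 1. The groups overlapped through control 3, since 3 Rspo2-AAV libraries lay below it and 3 above. The lowest library of each group was the one with the most Xist in that group, and the part of sex in the spread was not tested. Over 12 libraries the mean was 34.1 ± 20.0 FPKM in Rspo2-AAV and 144 ± 102 FPKM in control livers (SD, n = 6 each), with a log2 change of -1.94 ± 0.55 SE that did not pass (limma adjusted p = 0.0618). It was called lower without control 3 alone (-2.31, limma adjusted p = 0.0148) and without Rspo2-AAV 2 alone (-2.17, limma adjusted p = 0.0391). These are the lowest control and the highest Rspo2-AAV library, and the other 10 of 12 leave-one-out fits did not pass.

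Where Xist was low, Cyp7b1 separated the groups. In those 9 libraries it was at 23.3 to 44.8 FPKM in Rspo2-AAV and 79.1 to 299 FPKM in control livers (log2 change -2.21; limma adjusted p = 0.00717). Among numbers 4 to 7, where the set holds 4 Rspo2-AAV and 3 control libraries, it was at 23.3 to 44.8 FPKM and 79.1 to 135 FPKM (-1.64; limma adjusted p = 0.0101). Controls 1 and 2, with 299 and 234 FPKM, were well above the other controls, and without both the 12-library difference was -1.32 (limma adjusted p = 0.183). Other genes with a male bias in mouse liver were read beside it: all 7 of a fixed list had negative log2 changes, with a median of -1.36, although 1 of them, Ugt2b38, passed the test. Their summed level was 2240 to 9830 FPKM in Rspo2-AAV and 6519 to 12933 FPKM in control libraries, and its part in the Cyp7b1 result was not tested.

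Cyp7a1 did not differ between the vectors beyond its spread. Cyp7a1 (ENSMUSG00000028240, chromosome 4, 6265612 to 6275633, minus strand) was at 32.6 FPKM in Rspo2-AAV 7, a median of 40.8 and 123 in Rspo2-AAV 1, against 5.93 in control 1, a median of 46.3 and 79.4 in control 3. Means were 53.8 ± 34.8 FPKM in Rspo2-AAV and 42.2 ± 33.0 FPKM in control livers (SD, n = 6 each). The medians and the means thus point in opposite directions, and the log2 change of 0.81 ± 0.66 SE had a 95% interval from -0.63 to 2.24 (limma adjusted p = 0.53). Controls 1 and 2, at 5.93 and 6.07 FPKM, set the sign: without them the log2 change was -0.24 (limma adjusted p = 0.761), and among numbers 4 to 7 it was -0.39 (limma adjusted p = 0.45). The change was 2.32 among numbers 1 to 3, and the interaction of vector and number set did not pass (-2.70 ± 1.203 SE, limma adjusted p = 0.424), as for all 10 enzymes. It was called for 0.245% of all tested genes.

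Controls 1 and 2 also stood at the ends of other enzymes. They had the highest Cyp7b1 of all 12 libraries and the lowest Akr1d1, 26.9 and 15.8 FPKM. The prolactin receptor gene Prlr, one of the 3 genes nearest to Cyp7a1 by root mean square difference of centred log2 values over the 12 libraries (0.74; 11410 genes compared), was at 1.65 and 1.73 FPKM in them, against 2.96 to 15.3 in the other controls. The other 2 nearest genes, Gm6091 and Gm15344, both had a difference of 0.72. For Cyp7b1 the nearest were Slc22a28 (0.53), Serpine2 (0.53) and C4a (0.55). Of these 6 genes, Serpine2 and C4a were called lower in the Rspo2-AAV livers, with log2 changes of -1.499 and -2.17 (limma adjusted p = 0.0303 and 0.0343). The 6 were picked for likeness over the same 12 libraries, so the group difference and the levels in controls 1 and 2 entered the choice. Their values are therefore a description and no separate support for the enzyme values.

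**Figure D2:**
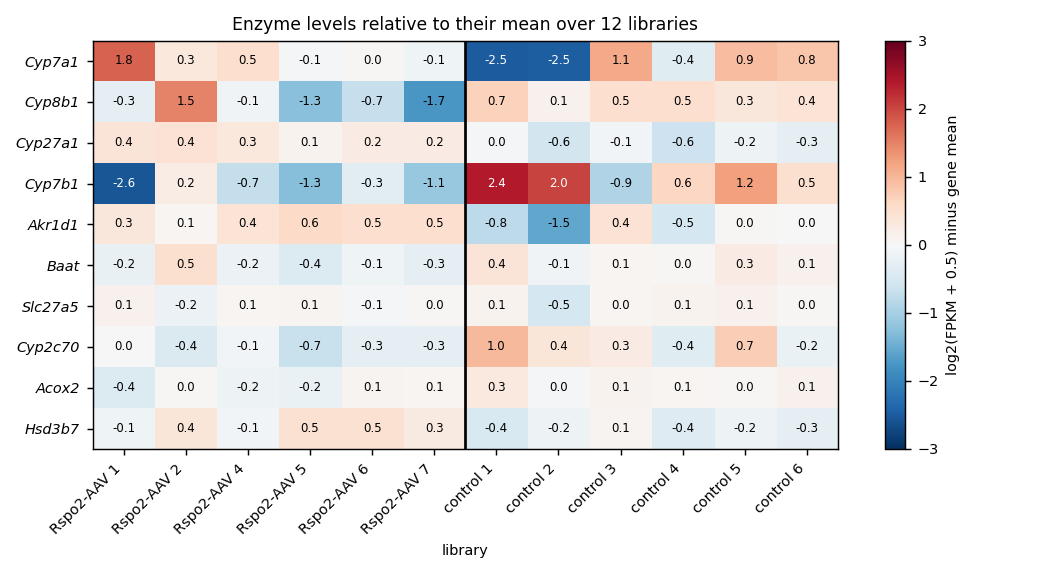
Level of each enzyme in each library as log2(FPKM + 0.5) minus that gene's mean over the 12 libraries, with Rspo2-AAV libraries left of the line and controls right of it. Controls 1 and 2 are low in Cyp7a1 and high in Cyp7b1, Rspo2-AAV 1 is the opposite, and Rspo2-AAV 2 is the library with the highest Cyp8b1, at 314 FPKM.

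Cyp8b1 was lower in 5 of 6 Rspo2-AAV libraries than in any control. The enzyme makes cholic acid and so sets the share of this acid in the bile. Cyp8b1 (ENSMUSG00000050445, chromosome 9, 121914356 to 121916305, minus strand, a gene without introns) was at 33.0 FPKM in Rspo2-AAV 7, a median of 79.6 and 314 in Rspo2-AAV 2, against 123 in control 2, a median of 154 and 179 in control 1. Without Rspo2-AAV 2 the highest Rspo2-AAV value was 103 FPKM, in number 4, under the lowest control. Means were 109 ± 104 FPKM in Rspo2-AAV and 152 ± 19.2 FPKM in control livers (SD, n = 6 each), and the log2 change of -0.87 ± 0.41 SE did not pass (limma adjusted p = 0.247). Leaving out Rspo2-AAV 2, the library with the highest Cyp8b1, gave -1.25 (limma adjusted p = 0.0148). Removing the most contrary value favours such a result, and the other 11 of 12 leave-one-out fits did not pass. Rspo2-AAV 2 also had the least Rspo2 and marks of both sexes, and their part in its Cyp8b1 value was not tested. The 9 libraries with little Xist and the libraries numbered 4 to 7 both gave -1.37 (limma adjusted p = 0.0131 and 0.0418). In both sets all Rspo2-AAV values, 33.0 to 103 FPKM, lay below the controls. The 2 sets share Rspo2-AAV 4 to 7 and controls 4 to 6, so they are not separate tests. Among numbers 1 to 3 the sign turned (0.15; limma adjusted p = 0.97).

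The promoters of Cyp27a1 and Cyp8b1 are shown because these enzymes moved in opposite directions in the 9 libraries with little Xist. They are RefSeq windows on GRCm38.p6 of 300 bases, read 5′ to 3′ on each gene's own strand, at chr1:74713285-74713584 (plus strand) and chr9:121916256-121916555 (minus strand). Capitals mark the last 50 bases, from the RefSeq start of the transcript onward.
Cyp27a1: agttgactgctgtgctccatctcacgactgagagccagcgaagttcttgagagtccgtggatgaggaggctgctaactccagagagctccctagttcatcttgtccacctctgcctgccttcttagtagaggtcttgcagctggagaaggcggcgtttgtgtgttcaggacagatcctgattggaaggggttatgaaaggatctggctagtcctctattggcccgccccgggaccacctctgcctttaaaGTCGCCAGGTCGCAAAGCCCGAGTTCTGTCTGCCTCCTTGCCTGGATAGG
Cyp8b1: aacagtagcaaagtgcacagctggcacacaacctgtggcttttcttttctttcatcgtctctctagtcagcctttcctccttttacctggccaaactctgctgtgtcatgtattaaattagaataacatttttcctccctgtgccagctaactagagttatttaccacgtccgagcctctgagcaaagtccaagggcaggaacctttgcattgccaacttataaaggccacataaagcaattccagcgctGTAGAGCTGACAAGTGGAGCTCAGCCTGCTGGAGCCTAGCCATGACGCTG
Windows were found for 6 of the 10 enzymes (7 windows, 2 of them for Acox2) and not for Cyp7a1, Cyp7b1, Baat and Slc27a5. They were searched on both strands for CTTTGAT, a TCF/LEF core, for AAGGTCA, a monomer site of NR5A2 and related receptors, and for aggtcantgacct, the inverted repeat bound by FXR. None of the 7 windows held any of the 3, which are found in 3.73%, 4.72% and 0.00913% of 32851 mouse promoter windows. GC content was 55.3% for Cyp27a1 and 47.3% for Cyp8b1.

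Akr1d1, the reductase that gives the bile acid ring its bent shape, was higher in the Rspo2-AAV livers where Xist was low. Akr1d1 (ENSMUSG00000038641, chromosome 6, 37530173 to 37568815, plus strand) was at 49.2 FPKM in Rspo2-AAV 2, a median of 65.0 and 70.5 in Rspo2-AAV 5, against 15.8 in control 2, a median of 40.1 and 63.4 in control 3. Control 3 alone reached into the Rspo2-AAV range. The groups averaged 62.7 ± 7.63 FPKM in Rspo2-AAV and 39.1 ± 17.2 FPKM in control livers (SD, n = 6 each; log2 change 0.80 ± 0.27 SE; limma adjusted p = 0.11). The change was 1.07 in the 9 libraries with little Xist (limma adjusted p = 0.0391) and 0.66 among numbers 4 to 7 (limma adjusted p = 0.0255). Without control 3, the highest control, the change was 0.96 (limma adjusted p = 0.0417), and the other 11 of 12 leave-one-out fits did not pass. Without controls 1 and 2 it was 0.41 (limma adjusted p = 0.202).

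Hsd3b7, the dehydrogenase that follows the ring hydroxylation, could be read only at the floor of detection. Hsd3b7 (ENSMUSG00000042289, chromosome 7, 127800604 to 127803802, plus strand) had 9 to 38 reads per library, and levels of 0.429 to 0.902 FPKM in Rspo2-AAV and 0.245 to 0.573 FPKM in control livers. In the GENCODE M21 annotation 2746 of its 2769 exon bases (99.2%) are also exon of another gene, either Gm49388 on the same strand (1717 bases, 62%) or 9430064I24Rik on the opposite strand. Gm49388 was listed at 0 in all 12 libraries. How reads on shared bases were counted is not given in the sources used here, so the level of Hsd3b7 is uncertain. The unshared bases form 1 stretch, printed to show how little of the gene is its own, at chr7:127802763-127802785 on the plus strand of GRCm38, which is exon only in a transcript with a retained intron.
Hsd3b7: cctccctccctccctgctggcag
The log2 change was 0.45 ± 0.15 SE over 12 libraries (limma adjusted p = 0.11), 0.56 in the 9 libraries with little Xist (limma adjusted p = 0.0382) and 0.55 among numbers 4 to 7 (limma adjusted p = 0.0745). At these low levels it moved with the pseudocount, to 0.74 at 0.1 and 0.30 at 1, and to 0.82 by limma-voom on recovered reads, and passed in none of the 3 (limma adjusted p from 0.106 to 0.118).

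Of the enzymes of the later steps, Baat (ENSMUSG00000039653, chromosome 4, 49489422 to 49506557, minus strand), which conjugates the finished acids, was at 98.9 FPKM in Rspo2-AAV 5, a median of 115 and 184 in Rspo2-AAV 2, against 123 in control 2, a median of 141 and 173 in control 1. As for Cyp8b1, 5 of 6 Rspo2-AAV libraries lay below every control and number 2 lay above every control. The log2 change was -0.25 ± 0.15 SE (limma adjusted p = 0.364), and it was called lower among numbers 4 to 7 (-0.38, limma adjusted p = 0.0412) but not in the 9 libraries with little Xist (-0.39, limma adjusted p = 0.0647).

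Slc27a5, the ligase that activates bile acids for conjugation, had the log2 change nearest to 0. Slc27a5 (ENSMUSG00000030382, chromosome 7, 12988346 to 12998192, minus strand) was at 261 FPKM in Rspo2-AAV 2, a median of 304 and 322 in Rspo2-AAV 1, against 205 in control 2, a median of 309.7 and 323 in control 5. The log2 change was 0.03 with a 95% interval from -0.25 to 0.31 (limma adjusted p = 0.923), which still allows a modest change either way. Acox2 (ENSMUSG00000021751, chromosome 14, 8225511 to 8259353, minus strand), the peroxisomal oxidase of the side chain, was at 58.9 FPKM in Rspo2-AAV 1, a median of 74.8 and 82.2 in Rspo2-AAV 6, against 76.5 in control 2, a median of 82.4 and 96.0 in control 1. Its log2 change was -0.20 with a 95% interval from -0.43 to 0.03 (limma adjusted p = 0.31). Cyp2c70 (ENSMUSG00000060613, chromosome 19, 40153353 to 40187333, minus strand), the maker of muricholic acids, was at 130.5 FPKM in Rspo2-AAV 5, a median of 171 and 207 in Rspo2-AAV 1, against 163 in control 4, a median of 259.8 and 409 in control 1. The ranges overlapped through controls 4 and 6, and the log2 change of -0.60 ± 0.22 SE did not pass (limma adjusted p = 0.138) in any of the sets of libraries tried.

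**Figure D3:**
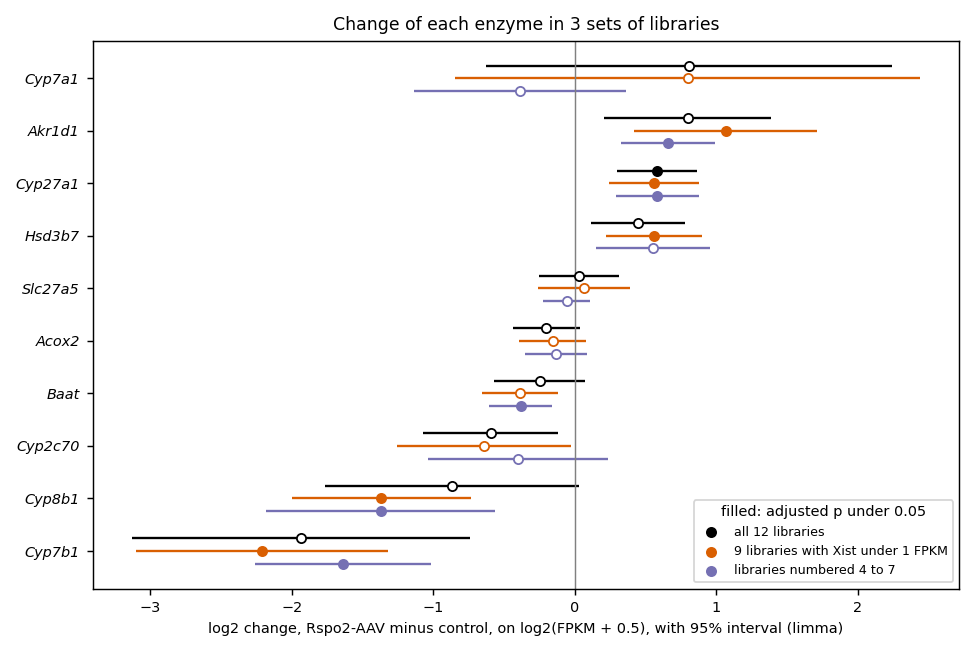
Log2 change of each enzyme (Rspo2-AAV minus control, on the log2(FPKM + 0.5) scale) with its 95% interval from limma, over all 12 libraries (black), the 9 libraries with Xist under 1 FPKM (orange) and the libraries numbered 4 to 7 (purple); filled points have an adjusted p under 0.05. Cyp27a1 is filled in all 3 sets, and Cyp7b1, Cyp8b1 and Akr1d1 are filled in both smaller sets only. Hsd3b7 is filled only in the 9 libraries with little Xist, and Baat only among numbers 4 to 7.

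By level, which FPKM allows to be compared between genes, the order of the enzymes differed in places. The place of Hsd3b7 is uncertain, because 99.2% of its exon bases are shared with other genes. In Rspo2-AAV livers Cyp27a1 had the highest mean (352.5 FPKM), then Slc27a5 (298), Cyp2c70 (172), Baat (124), Cyp8b1 (109), Acox2 (73.2), Akr1d1 (62.7), Cyp7a1 (53.8), Cyp7b1 (34.1) and Hsd3b7 (0.702). In control livers Slc27a5 came first (294), then Cyp2c70 (271), Cyp27a1 (238), Cyp8b1 (152), Baat (145), Cyp7b1 (144), Acox2 (83.8), Cyp7a1 (42.2), Akr1d1 (39.1) and Hsd3b7 (0.376). Neighbours in these orders had overlapping ranges, except for Slc27a5 over Cyp2c70 and Cyp7b1 over Hsd3b7 in Rspo2-AAV livers, and Cyp27a1 over Cyp8b1 and Akr1d1 over Hsd3b7 in control livers. Cyp7b1 stood ninth in the first order and sixth in the second.

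Ratios within a library do not depend on library scaling, and 3 were tested against Cyp7a1. Cyp7b1 over Cyp7a1 was 0.0746 to 1.502 in Rspo2-AAV and 0.378 to 50.4 in control livers, with a log2 difference of -2.79 (exact two-sided permutation p = 0.0606, adjusted over the 3 ratios 0.12). Cyp8b1 over Cyp7a1 was 0.736 to 7.06 in Rspo2-AAV and 2.00 to 30.3 in control livers (-1.71; exact two-sided permutation p = 0.0801, adjusted 0.12). Cyp27a1 over Cyp7a1 was 3.06 to 10.4 in Rspo2-AAV and 3.39 to 47.4 in control livers (-0.26; exact two-sided permutation p = 0.708, adjusted 0.708). None passed over the 924 splits. The Cyp7b1 ratio passed without control 3 (-3.49; exact two-sided permutation p = 0.0043, unadjusted) and the Cyp8b1 ratio without Rspo2-AAV 2 (-2.12; exact two-sided permutation p = 0.0281, unadjusted). The Cyp27a1 ratio turned to 0.97 among numbers 4 to 7 (exact two-sided permutation p = 0.0286, unadjusted, the smallest that set allows) and to 0.82 without controls 1 and 2. The other ratios were smaller in these sets: the Cyp7b1 ratio was -1.26 among numbers 4 to 7 (exact two-sided permutation p = 0.0571) and -1.10 without controls 1 and 2 (exact two-sided permutation p = 0.295). The Cyp8b1 ratio was -0.99 and -0.65 in the same sets (exact two-sided permutation p = 0.0857 and 0.352).

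**Figure D4:**
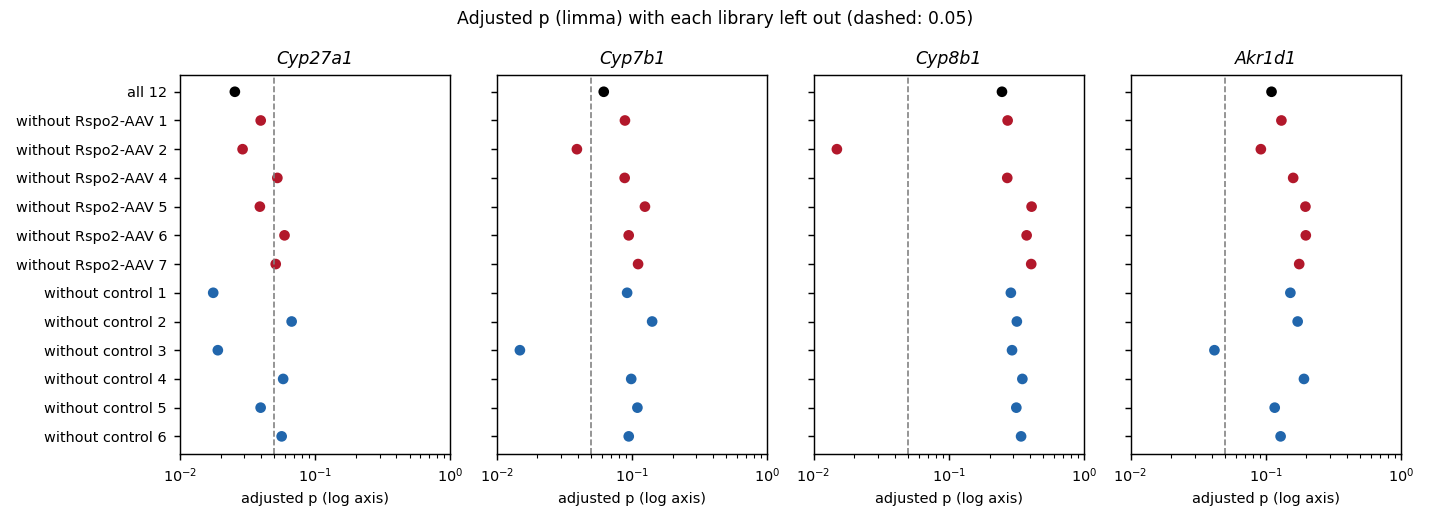
Adjusted p from limma (log axis, dashed line at 0.05) for 4 enzymes over all 12 libraries (black) and with each Rspo2-AAV (red) or control (blue) library left out. Cyp27a1 moves across the line for 6 of the 12 libraries, Cyp7b1 passes without control 3 or Rspo2-AAV 2, Cyp8b1 passes without Rspo2-AAV 2 and Akr1d1 passes without control 3.

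Of the other enzymes of the pathway, Cyp2a12 and Hsd17b4 fell. Of 9 tested enzymes on a list of 10 (Ch25h was under the filter), limma called 0 higher (1 at an unadjusted p under 0.05) and 2 lower, with a median log2 change of -0.42. Cyp2a12, which re-hydroxylates secondary bile acids in mouse liver, was at 73.6 to 154 FPKM in Rspo2-AAV and 169 to 229 FPKM in control livers, without overlap, and fell (log2 change -0.94 ± 0.17 SE; limma adjusted p = 0.00749). Hsd17b4, the peroxisomal bifunctional enzyme of the side chain, was at 110 to 153 FPKM in Rspo2-AAV and 151 to 183 FPKM in control livers, where Rspo2-AAV 2 alone reached the control range, and fell by 0.42 on the log2 scale (limma adjusted p = 0.0457). Of the 5 electron donors of cytochrome P450 enzymes, limma and limma-voom called 0 (2 at an unadjusted p under 0.05). The donors with the highest levels were Cyb5a, at 425 ± 135 FPKM in Rspo2-AAV and 326 ± 77.7 FPKM in control livers (SD, n = 6 each), and Por, at 163 ± 69.5 FPKM and 130 ± 64.5 FPKM (SD, n = 6 each).

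Genes that control the pathway were not called. Of 19 tested regulators on a list of 20 (Fgf15 was listed at 0 in all 12 libraries), limma and limma-voom called 0 (2 at an unadjusted p under 0.05), with a median log2 change of 0.12. Nr1h4, which encodes FXR, had a log2 change of -0.35 ± 0.19 SE (limma adjusted p = 0.309), and Nr0b2, the FXR target that represses Cyp7a1 and Cyp8b1, had -0.05 ± 0.34 SE (limma adjusted p = 0.953). Nr0b2 was at 18.1 to 94.5 FPKM in Rspo2-AAV and 26.3 to 55.6 FPKM in control livers, highest in Rspo2-AAV 2. Hnf4a was at 162 ± 47.6 FPKM in Rspo2-AAV and 162 ± 37.3 FPKM in control livers (SD, n = 6 each). Fgfr4, the receptor through which the gut hormone FGF15 represses Cyp7a1, was at 17.6 to 20.8 FPKM in Rspo2-AAV and 12.5 to 18.4 FPKM in control livers (0.31 ± 0.10 SE; limma adjusted p = 0.0825).

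Among bile acid carriers 1 of 12 tested was called higher and 0 lower by limma (3 lower at an unadjusted p under 0.05), with a median log2 change of -0.19. The higher one was Slco1a4, an uptake carrier, at 20.6 to 37.2 FPKM in Rspo2-AAV livers, against 0.62 to 3.24 FPKM in 5 controls and 29.4 FPKM in control 3 (log2 change 2.93 ± 0.62 SE; limma adjusted p = 0.0181). Control 3 was also the control that reached the Rspo2-AAV range for Cyp7b1 and Akr1d1. Slc10a1, the main uptake carrier, and Abcb11, the export pump, had log2 changes of -0.34 ± 0.22 SE and -0.42 ± 0.18 SE (limma adjusted p = 0.399 and 0.2).

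Genes of lobule zonation, which Wnt signalling is known to set, changed in the same livers. Of 12 tested pericentral genes, limma called 9 higher and 0 lower (median log2 change 1.28). The periportal list, also with 12 tested genes, had 6 lower and 0 higher by limma (median -1.05). Of these 12 genes 2 had positive changes. At an unadjusted p under 0.05 there was 1 higher, and limma-voom called 1 higher. The summed periportal level was 3353 to 6129 FPKM in Rspo2-AAV and 4920 to 7316 FPKM in control livers, with overlap. Slc1a2, a pericentral glutamate carrier, was at 45.9 to 75.1 FPKM in Rspo2-AAV and 16.8 to 25.8 FPKM in control livers. Slc13a3, Axin2 and Tbx3 rose by 1.35, 1.41 and 1.48 on the log2 scale. Cdh1, Hsd17b13, Cyp2f2 and Hal changed by -2.25, -4.26, -5.42 and -2.55. The change of Cyp27a1, 0.58, was smaller than the change of any of the 9 called pericentral genes, which ran from 0.88 to 1.49. These 9 were picked by their call, which favours large changes, and 1 of the 12 pericentral genes had a negative change.

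**Figure D5:**
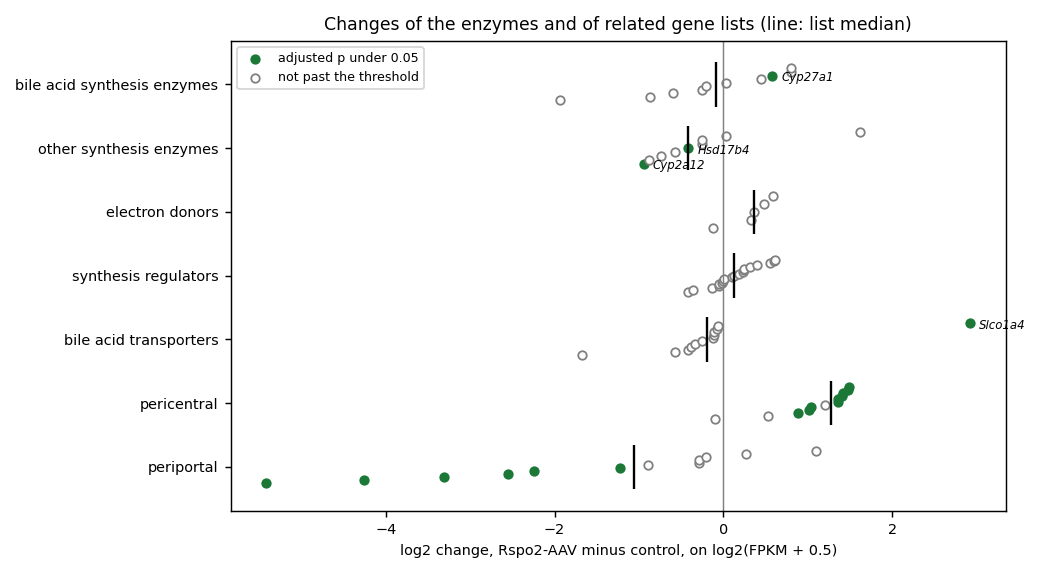
Log2 change (Rspo2-AAV minus control, on the log2(FPKM + 0.5) scale) of each tested gene in 7 lists, filled where the adjusted p from limma is under 0.05, with the list median as a black line. The bile acid synthesis enzymes spread on both sides of 0 with a median of -0.08, while the pericentral genes have a median of 1.28 and the periportal genes of -1.05.

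Markers of other liver cells also moved between the groups. Of 6 tested stellate cell markers 3 were lower (Lrat, Dcn and Colec11) and 0 higher, and their summed level was 27.3 to 44.7 FPKM in Rspo2-AAV and 59.8 to 75.6 FPKM in control livers. Of 6 macrophage markers 4 were lower (Clec4f, Cd68, Marco and Vsig4) and 0 higher, with sums of 235 to 451 FPKM in Rspo2-AAV and 374 to 776 FPKM in control livers. Of 6 endothelial, 4 tested bile duct and 4 tested lymphocyte markers, limma called 0 (1, 1 and 2 at an unadjusted p under 0.05). The red cell genes Hba-a1 and Hbb-bs were higher, and the summed level of 4 erythroid genes was 207 to 1203 FPKM in Rspo2-AAV and 93.0 to 327.5 FPKM in control livers. Of 8 pancreatic acinar genes limma called 0 (7 at an unadjusted p under 0.05), and their sum was under 1 FPKM in the 6 controls and in Rspo2-AAV 1 and 2. Of 7 tested female-biased genes limma called 0 (0 at an unadjusted p under 0.05), with sums of 711 FPKM in Rspo2-AAV 1, 166 in Rspo2-AAV 2 and 477 in control 3. The part of these cells in the enzyme values was not tested.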

How the data were processed

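The deposited values are FPKM, which the authors scaled by gene length and by a library size. That size is a constant multiple of the median-of-ratios factor computed from recovered reads in all 12 libraries, and TPM scaling was tried as an alternative. The submitters' processing notes name DESeq2 1.20.0, featureCounts 1.5.0-p3, HISAT2 2.0.5 and the build GRCm38 (mm10) without their roles. Gene length is a deposited column. Per the labels' protocols, libraries were made from polyadenylated RNA with or without strand marking, and which was used is not stated. Whole reads (within 0.01 of a whole number for 100% of positive values) were recovered from FPKM and length for depth and for limma-voom. The members and lists were chosen with earlier results of these data known. Each gene was tested with limma 3.58.1 (R 4.3.3; moderated variances with a trend) on log2(FPKM + 0.5), keeping the 13447 genes whose mean reached 0.5 FPKM, and p-values were adjusted by Benjamini-Hochberg; fold changes on this scale understate those of low genes. SE and 95% intervals come from the same fit, so they measure the spread between libraries. Subsets of libraries kept the same genes. The boundary between numbers 1 to 3 and 4 to 7 was seen in earlier results of these data, and the labels give no batch. Results within these number sets, p-values included, are therefore a description. Named genes were the 10 enzymes, Rspo2, Apoe and Xist, up to 4 called genes per list by smallest p (or the 2 with the highest mean where none was called), and the 3 genes nearest to Cyp7a1 and to Cyp7b1. Nr1h4, Nr0b2, Cyp39a1, Fgfr4, Slc10a1 and Abcb11 were singled out after their values were seen. The alternatives were other pseudocounts, filters, TPM scaling, limma-voom, number terms, subsets and leaving out each library.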

Additional observations from a re-analysis of the deposited data

Results flagged for a closer look

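In 4 of the 20 sets of 6 values (10 enzymes in 2 groups), the most extreme library lay far from the others. Its gap to the nearest one exceeded 0.625 of the group's whole range. Independent, normally distributed values pass this limit in about 1 set of 20. The limit was applied to FPKM without a log, and the 20 sets share 12 libraries. The count of 4 can therefore not be compared with that rate. Cyp7a1 in Rspo2-AAV 1, at 123 FPKM, had a gap of 0.801 of the range. Cyp8b1 and Baat in Rspo2-AAV 2, at 314 and 184 FPKM, had gaps of 0.750 and 0.750, and this library also had the least Rspo2 of its group (49.9 FPKM) and the highest share of mitochondrial reads of all 12 (10.5%, against 3.53% to 5.89% in the others). Slc27a5 in control 2, at 205 FPKM, had a gap of 0.838. These are values only, and no cause was tested.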

How the results depend on the processing

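Over the 10 enzymes, 226 of 259 alternative values kept their direction and their side of the threshold. For the enzymes not called over 12 libraries, this means that they stayed uncalled. Cyp27a1, the only one called, kept its call in 15 of 26 alternatives and lost it in 11. Called genes numbered 343 higher and 356 lower over 12 libraries, with 1 enzyme higher and 0 lower. They numbered 195 and 216 without a filter on low values (enzymes 0 and 0), 197 and 183 with TPM scaling (0 and 1), 853 and 931 among numbers 4 to 7 (2 and 3), 0 and 0 by limma among numbers 1 to 3 (0 and 0; 955 genes at an unadjusted p under 0.05), 807 and 908 in the 9 libraries with little Xist (3 and 2) and 117 and 120 without Rspo2-AAV 4 and 5 (0 and 0). Without controls 1 and 2, an alternative chosen after seeing the data, 213 were higher and 241 lower. Leaving out 1 library gave 162 to 421 higher and 170 to 492 lower genes, and 0 to 2 enzymes in each direction. Numbers shared by the groups showed no clear pairing of the samples (correlations of deviations from -0.25 to 0.16, with 1 of 5 numbers best matched to itself). With so few numbers and several libraries that stood apart, these correlations cannot exclude a weaker pairing. A replicate block on the shared numbers gave 145 higher and 152 lower genes and 0 enzymes. The same 10 libraries without it gave 294 and 342 genes and 1 enzyme each way. With the block Cyp27a1 had a limma adjusted p of 0.129, and with TPM scaling Cyp27a1 lost its call (0.0911) and Cyp7b1 gained one (0.0409). Signs turned for Cyp7a1 (-0.39 among numbers 4 to 7, -0.24 without controls 1 and 2), Cyp8b1 and Baat (0.15 and 0.0068 among numbers 1 to 3) and Slc27a5 (-0.059 among numbers 4 to 7, -0.0012 without Rspo2-AAV 4 and 5, -0.066 without controls 1 and 2, and -0.070 to 0.069 over the leave-one-out fits, negative without control 2). Leaving out 1 library moved the log2 difference of ratios to Cyp7a1 to between -3.49 and -2.08 for Cyp7b1, -2.12 and -1.23 for Cyp8b1, and -0.53 and 0.23 for Cyp27a1. The Cyp7b1 ratio was -3.06 in the 9 libraries with little Xist (exact permutation p = 0.0317), but -1.26 among numbers 4 to 7 (0.0571) and -1.10 without controls 1 and 2 (0.295), and the Cyp27a1 ratio was 0.97 among numbers 4 to 7 and 0.82 without controls 1 and 2. The cause of these shifts was not tested. Low counts limit Hsd3b7.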

Other observations

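Transcripts that follow the time of day differed widely between libraries of the same vector. Dbp, a clock-controlled transcription factor, was at 0.549 FPKM in Rspo2-AAV 5, 3.92 in number 4, 4.75 in number 6 and 23.1 to 31.5 in numbers 1, 2 and 7, and at 5.84 FPKM in control 3, 11.7 in control 5 and 38.3 to 48.9 in the other controls. Of 6 clock genes, a list added after the files were seen, limma and limma-voom called 0 (0 at an unadjusted p under 0.05). The hour of collection is not stated in the labels, and the part of the clock in the enzyme values was not tested.

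Cyp39a1, another oxysterol hydroxylase, was at 29.8 FPKM in Rspo2-AAV 1, 12.03 in number 2 and 4.41 to 11.3 in numbers 4 to 7, and at 24.3 FPKM in control 3 and 1.35 to 2.24 in the other controls. In both groups the highest library was the one with the most Xist (log2 change 1.62 ± 0.63 SE; limma adjusted p = 0.155). It was singled out after its values were seen.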
